A study of Mus musculus with 2 samples.

Results

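Resting Tcf7-negative CD8 T cells are the tumour-infiltrating cytotoxic T cells that carried the CD8 co-receptor and, in these libraries, no detected transcript of Tcf7, the transcription factor of naive, memory and progenitor T cells, and that were neither dividing nor recently stimulated by their receptor. They were chosen by their own counts of unique molecular identifiers (UMIs, tags that count single RNA molecules). A member had at least 3 UMIs of Cd3e, Cd3d, Cd3g and Trac together, at least 2 of Cd8a and Cd8b1, 0 of Cd4, under 20 of C1qa, C1qb and C1qc, and 0 of Klra1, Klra6 and Klra7. These conditions are called the CD8 gate below. It also had under 2 UMIs of Mki67 and Top2a, 0 of Tcf7, 0 of Gzmc to Gzmf, and under 3 of Xcl1, Crtam and Nr4a3. In all, 839 of 18112 kept barcodes met the rule, 488 of them from the FDPS-knockout library and 351 from the control.

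The libraries came from B16-F10 melanoma, a mouse melanoma cell line, grown under the skin and collected on day 14 from 3 tumours per group. In the knockout group the injected melanoma cells lacked FDPS, which makes farnesyl diphosphate in the mevalonate pathway, and in the control group their genotype was labelled WT. Viable CD45+ cells, leukocytes of the mouse, were sorted and measured by droplet single-cell RNA sequencing, and the labels name no strain, age or sex of the mice. The labels give the cell type as melanoma, although the sort kept host cells. Each group is 1 library whose cells carry no label of their tumour, so no test between groups was possible and each comparison is of these 2 libraries. Whether the knockout line was 1 clone is not stated. The knockout was made in the engrafted melanoma cells and not in the T cells of the host, so the Fdps level in them does not check the knockout label. It was 14.2 CPM (11.1 to 17.8) in knockout members and 49.7 CPM (43.2 to 56.8) in control members.

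CD8 T cells recognise tumour peptides on MHC class I and kill by releasing perforin and granzymes. Under lasting stimulation in a tumour they pass from Tcf7-positive progenitors, which renew themselves, to Tcf7-negative cells that express the factor Tox and inhibitory receptors such as PD-1 (Pdcd1) and TIM-3 (Havcr2), a state known as exhaustion. Glycolysis fuels their effector functions, and type I interferon induces a shared set of antiviral genes in nearly all cells.

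The marker genes bore out the T cell label. After each cell was thinned to 5000 UMIs, Ccl5, a chemokine that draws T cells, was detected in 99.5% (98.3 to 99.9) of knockout members and 97.1% (94.4 to 98.8) of control members, and Tox in 98.1% (96.2 to 99.2) of knockout members and 96.4% (93.5 to 98.3) of control members. The same values in B cells of the same libraries, which should lack these RNAs, were 20.2% and 14.1% for Ccl5 and 5.95% and 4.04% for Tox. The B cells were chosen with 0 UMIs of Cd3e, Cd3d, Cd3g and Trac, so B cell values here and below may understate free T cell RNA. Foxp3 had 0 and 5 UMIs over all members, and of the gamma-delta T cell list Tcrg-C2 was detected, at 67.7 and 54.4 CPM against 18.4 and 6.71 CPM over all kept barcodes, while Trdc had 5 and 2 UMIs. The word resting holds only relative to the gates, since 166 knockout and 125 control members had 1 UMI of Mki67 or Top2a, and 92 and 87 cells with 2 lay just outside. Likewise 60 and 17 otherwise matching cells had 1 UMI of Tcf7, and a count of 0 does not show that a cell lacks the RNA. At the other limits, 28 knockout and 16 control members had 2 UMIs of Cd8a and Cd8b1 while 33 and 22 cells had 1, and 30 and 14 members had 2 UMIs of Xcl1, Crtam and Nr4a3 while 12 and 8 cells had 3.

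Per cell, the median depth of members was 9887 UMIs (knockout) and 11729 UMIs (control), with 3182 and 3491 genes detected, and their UMIs added up to 5216756 and 4286843. RNA of other cells was present in both and differed between them. The summed level of 6 melanoma genes was 16.1 CPM (UMIs scaled to a fixed total per library) in knockout and 155 CPM in control members, with none of the 6 at 0. The macrophage and monocyte list summed to 1056 and 901 CPM, mostly from Ly6c2 and Ccr2, which T cells also make, while C1qa was at 6.33 and 48.1 CPM and Apoe at 13.4 and 53.9 CPM. Ribosomal protein genes took 14.5% of UMIs in knockout members and 22% in control members. No barcode was shared by the members of both libraries, and 30 of all barcodes were.

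Whether members were more or less common in the knockout library depended on what they were counted against. They made up 25.5% (95% interval 23.6 to 27.5) of the CD8 gate among knockout cells, 488 of 1914, and 19.2% (17.4 to 21.1) among control cells, 351 of 1829, a ratio of 1.33 (1.18 to 1.5). Among non-dividing cells of the gate they made up 48.4% (45.2 to 51.5) and 60.2% (56.1 to 64.2), a ratio of 0.803 (0.733 to 0.881). The first share was higher and the second lower in the knockout library. Dividing cells took 47.3% (knockout) and 68.1% (control) of the gate, Tcf7-positive cells 22.7% and 3.77%, and cells with Gzmc to Gzmf 0.261% and 6.83%. The intervals are exact for the shares and cover counting error only. With C1q genes limited to under 3 UMIs, a condition that left 1892 knockout and 1232 control cells in the gate, the first ratio was 1.08 (0.955 to 1.23). Dividing cells were also deeper, with medians of 21146 and 30903 UMIs, so depth moves with these shares. With every cell thinned to 5000 UMIs before the gates, members made up 39.1% and 32.3% of the gate, a ratio of 1.21 (1.11 to 1.33).

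**Figure D1:**
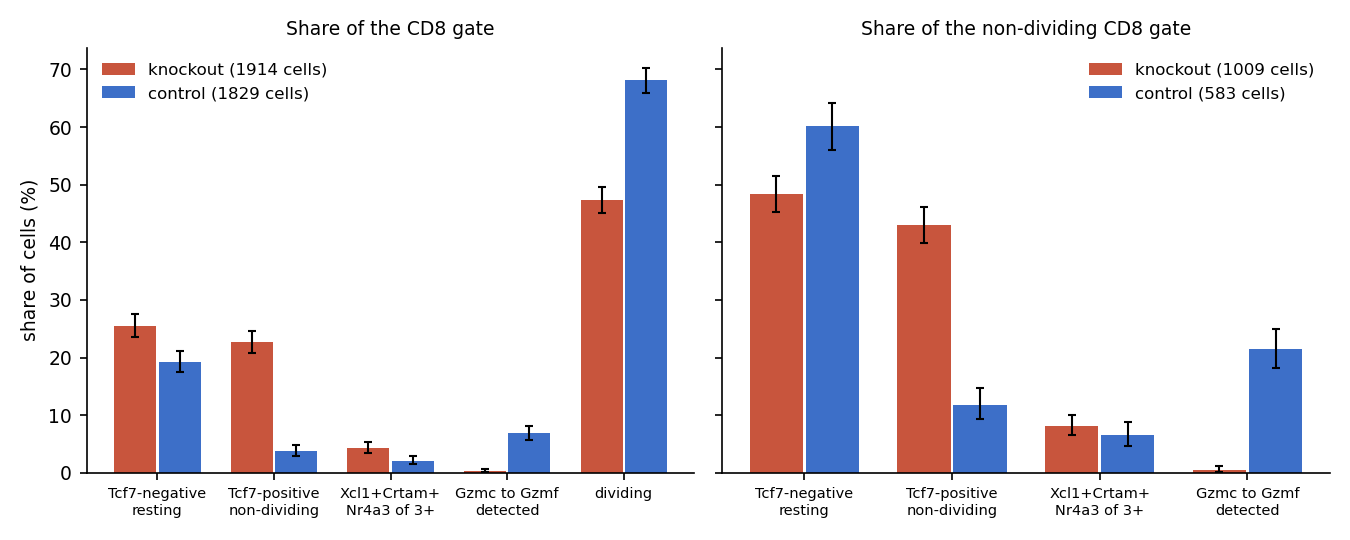
Share of each class of CD8 T cell (vertical axis, percent of cells) in the knockout and control library, of the whole CD8 gate on the left and of its non-dividing cells on the right. Bars are shares, lines are exact 95% intervals for counting error, and the resting Tcf7-negative share is 25.5% against 19.2% on the left and 48.4% against 60.2% on the right.

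Gene levels were compared after summing the UMIs of members per library, as the log2 of the knockout over the control value with 5 CPM added to each. Of 8126 genes with a mean of at least 10 CPM, 1299 (16%) were at least 1.5-fold higher in knockout members and 755 (9.29%) at least 1.5-fold lower, and the median of all was 0.14. Scaling by the median ratio instead gave 639 higher and 1217 lower, with a median near 0, so counts of each direction are relative to the scaling. The share of genes that were higher increased with gene span, from 4.13% in the shortest of 4 equal span classes (median 6.05 kb) to 39.7% in the longest (median 102 kb), where the median log2 ratios were -0.30 and 0.50. List medians are therefore also given relative to span, after subtraction of each gene's span class median. Values in parentheses after a level or a ratio are 95% counting intervals.

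Part of the killing machinery was lower in knockout members. Gzmb, the granzyme that triggers death of the target cell, was at 428 CPM (411 to 447) in knockout members and 908 CPM (879 to 937) in control members, a log2 ratio of -1.07. Prf1, the pore protein through which granzymes enter, was at 216 CPM (204 to 229) in knockout members and 706 CPM (681 to 732) in control members, a log2 ratio of -1.69 (-1.78 to -1.59). Of 17 cytotoxic and effector genes measured, 7 were at least 1.5-fold lower and 1 higher, beside 9.29% and 16% of all genes. The list's median was -0.41, or -0.34 relative to span. The lower ones included Serpinb9, which protects the killer from its own granzyme (47.7 against 109 CPM), Serpinb6b (42 against 125 CPM), the protease inhibitor Cst7 (125 against 208 CPM) and Ifng, the gene of interferon gamma (130.0 against 206 CPM). Gzma was the exception, at 56.9 against 19.8 CPM, while Gzmk (87.8 against 87.5 CPM) and the granule protein gene Nkg7 (2137 against 2388 CPM) lay within 1.5-fold.

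Among thinned cells the same difference appeared in how many UMIs a cell held. Gzmb was detected in 66.8% (62.1 to 71.4) of knockout members and 80.4% (75.2 to 84.8) of control members, and 5 or more UMIs in 13.3% and 32.5%. Prf1 was detected in 50.4% (45.4 to 55.3) of knockout members and 80.4% (75.2 to 84.8) of control members, and both genes together in 38.3% and 68.2%. Without thinning the shares were 70.5% and 82.1% for Gzmb and 65.4% and 84.9% for Prf1. B cells of the libraries showed 2.38% and 10.1% for Gzmb and 1.19% and 2.02% for Prf1, well under the members. The thinned values rest on 413 knockout and 280 control members with at least 5000 UMIs, after 75 and 71 shallower ones were left out, and on 84 and 99 B cells. Before thinning the B cells had medians of 8264 UMIs (knockout) and 6052 UMIs (control).

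Inhibitory receptors, the brakes of the T cell, were close in level. Pdcd1 was at 350.0 CPM (334 to 366) in knockout members and 418 CPM (398 to 437) in control members, a log2 ratio of -0.25 (-0.34 to -0.16). Havcr2 was at 325 CPM (310.0 to 341) in knockout members and 296 CPM (279.5 to 312) in control members, a log2 ratio of 0.14 (0.03 to 0.24), and its sign turned to -0.03 under median ratio scaling. Of 14 genes of the list, 12 lay within 1.5-fold, among them Lag3 (247 against 232 CPM), the ectoenzyme gene Entpd1 (345 against 289.7 CPM) and Cd101 (29.5 against 28.9 CPM). Ctla4, which competes for the ligands of Cd28, was lower (135 against 279 CPM) and Tigit higher (86.1 against 53.9 CPM). The list's median was 0.07, or -0.18 relative to span. Thinned cells with both Pdcd1 and Havcr2 made up 48.9% and 52.5%.

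Of the costimulatory receptors, 3 of the tumour necrosis factor receptor family were lower and none of the list was higher. Tnfrsf9 (4-1BB), which appears on T cells after receptor stimulation, was at 89.9 CPM (81.9 to 98.4) in knockout members and 336 CPM (319 to 353) in control members, a log2 ratio of -1.84 (-1.99 to -1.70). It was detected in 22.8% (18.8 to 27.1) of knockout members and 59.6% (53.6 to 65.4) of control members after thinning, against 3.57% and 3.03% of B cells. Tnfrsf4 (OX40) was at 10.7 against 73.9 CPM and Tnfrsf18 (GITR) at 56.5 against 120.1 CPM. The other 8 of the 11 measured costimulatory genes lay within 1.5-fold, including Cd28 (185 against 128 CPM), Icos (107 against 76.7 CPM), Cd27 (221 against 181 CPM) and Cd226 (652 against 524 CPM). The list's median was 0.13, near the 0.14 of all genes, or -0.11 relative to span. Of all genes, 9.29% were lower and 16% higher.

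The transcription factors of effector and exhausted cells did not move as 1 block. Tox, the factor that sets up exhaustion, was at 3608 CPM (3556 to 3659.5) in knockout members and 1857 CPM (1817 to 1898) in control members, a log2 ratio of 0.96 (0.92 to 0.99), and its relative Tox2 at 50.4 against 8.63 CPM. Ikzf3 (1043 against 513 CPM), Eomes (60.4 against 32.2 CPM), Irf4 (41.8 against 20.1 CPM) and Maf (44.9 against 24 CPM) were also higher. Ikzf2 (Helios), by contrast, was at 149 CPM (139 to 160.0) in knockout members and 386 CPM (368 to 405) in control members, and Bhlhe40 (74.4 against 177 CPM) and Irf8 (85.9 against 139 CPM) were lower as well. Runx3 (582 against 599 CPM) and Id2 (615 against 622 CPM), which support the cytotoxic programme, lay within 1.5-fold. In total 6 of 17 were higher and 3 lower, beside 16% and 9.29% of all genes. The list's median was 0.24, or 0.08 relative to span, and the median's sign turned under another setting (-0.02 to 0.32). Tox2, on chromosome 2 (163203125 to 163324170, GRCm38), lies in the longest span class, and its log2 ratio relative to that class was 1.52. Tox lies in the same class, and its log2 ratio relative to that class was 0.45, within 1.5-fold.

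Genes of naive and memory cells were higher in knockout members, with Tcf7 itself at 0 by choice in both libraries. Of 13 measured, 9 were at least 1.5-fold higher and 0 lower, beside 16% and 9.29% of all genes. The list's median was 0.80, or 0.52 relative to span. Bach2, a repressor that restrains effector differentiation, was at 276 CPM (262 to 290.3) in knockout members and 61.6 CPM (54.4 to 69.5) in control members, a log2 ratio of 2.08 (1.90 to 2.25). Foxp1 (413 against 161 CPM), Lef1 (98.1 against 49 CPM), Foxo1 (126 against 70.2 CPM), the receptor gene Slamf6 (30.9 against 11.2 CPM) and the egress receptor S1pr1 (19 against 5.37 CPM) were higher too. Il7r, the receptor for the survival cytokine IL-7, lay within 1.5-fold (35.8 against 43.4 CPM). Bach2 was detected in 47.5% (42.6 to 52.4) of knockout members and 14.6% (10.7 to 19.3) of control members after thinning, but B cells use this gene too (89.3% and 91.9%). B cell markers summed to 148 CPM in knockout and 91.7 CPM in control members, with none of 6 at 0. The log2 ratio of Bach2 was 2.05 after subtraction of free RNA.

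Several adhesion and homing genes were higher in knockout members. Itga1, a subunit of the collagen receptor VLA-1 of tissue-resident T cells, was at 168 CPM (157 to 179) in knockout members and 40.4 CPM (34.6 to 46.8) in control members, a log2 ratio of 1.93 (1.71 to 2.14). Itgb1, its partner, was at 531 against 224 CPM, and Itga4 at 1793 against 822 CPM. The other residency marker, Itgae (CD103), was detected in under 2% of thinned cells of either library, at 1.45% and 1.43%, which B cells matched (1.19% and 1.01%). Among 11 residency genes 6 were higher and 1, Rgs1 (113 against 182 CPM), was lower, beside 16% and 9.29% of all genes. The list's median was 0.61, but 0.11 relative to span, and 0.09 over 14 genes with no minimum level. Cxcr3, the receptor for interferon-induced chemokines, was at 73.6 CPM (66.4 to 81.4) in knockout members and 20.5 CPM (16.5 to 25.3) in control members and was detected in 26.6% (22.4 to 31.2) of knockout members and 8.57% (5.57 to 12.5) of control members, against 11.9% and 3.03% of B cells. Ccr2 was higher as well (205 against 78.8 CPM), while Cxcr6 (487 against 544 CPM) lay within 1.5-fold.

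Ccl5 was the most abundant of the chemokines measured in members of both libraries on the CPM scale, which is not divided by gene length. It was at 8732 CPM (8652 to 8812) in knockout members and 4509.6 CPM (4446 to 4574) in control members, a log2 ratio of 0.95 (0.93 to 0.98). Ccl4 was at 1278 against 852 CPM and Ccl3 at 548 against 562 CPM, both within 1.5-fold. Cxcl10, which myeloid cells also make, was at 6.9 against 44.8 CPM.

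**Figure D2:**
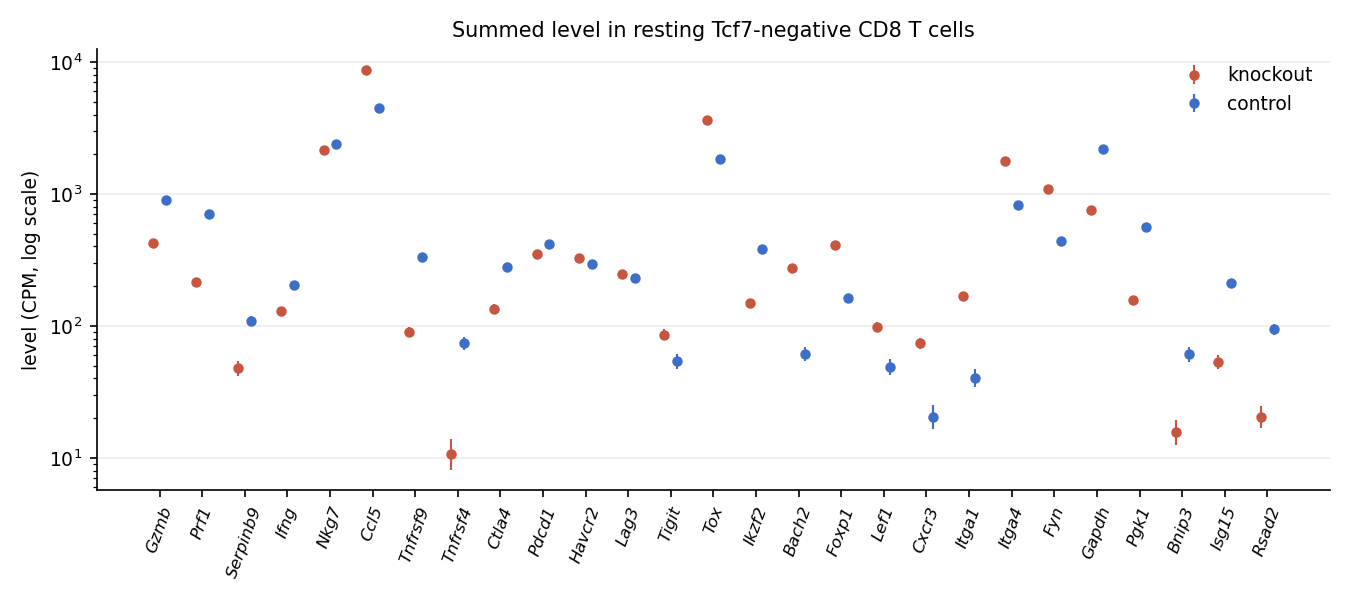
Summed level in resting Tcf7-negative CD8 T cells (vertical axis, CPM on a log scale) of 27 genes from the lists, in the knockout and control library, with exact 95% Poisson intervals as lines. Gzmb, Prf1, Tnfrsf9, Ikzf2, Gapdh and Isg15 lie lower in the knockout library, Tox, Ccl5, Bach2 and Itga1 higher, and Pdcd1, Havcr2 and Lag3 close together.

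Receptor signalling genes were higher on the whole. Of 16 genes of proximal signalling, 8 were at least 1.5-fold higher and 0 lower, beside 16% and 9.29% of all genes. The list's median was 0.59. The kinase gene Fyn was at 1090.0 CPM (1062 to 1119) in knockout members and 437 CPM (418 to 457) in control members, Nfatc1, a factor switched on by calcium, at 365 against 178 CPM, and the kinase gene Prkcq at 533 against 282 CPM. Lck (448 against 409 CPM), Lat (159 against 167 CPM) and Zap70 (192 against 138 CPM) lay within 1.5-fold. After subtraction of the span class the median was 0.34 and 1 gene was still past 1.5-fold, and 10 of the 16 are in the longest class. Attenuators of signalling had 6 of 19 higher and 1 lower, among them Dgka (160.3 against 90.3 CPM) and Cd5 (133 against 73.7 CPM), with a median of 0.36, or 0.10 relative to span. Immediate early genes, which follow recent stimulation, ran lower, with 6 of 16 lower and 1 higher and a median of -0.38, or -0.27 relative to span. Examples are Jun (24.5 against 63.9 CPM), Junb (90.3 against 177 CPM) and Nfkbia (85.3 against 175 CPM), and the exception was Nr4a1 (37.8 against 20.1 CPM).

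Glycolysis had the median farthest from 0 among the 25 lists, whose medians ranged from -1.32 to 0.80. Of 21 measured genes, 15 were at least 1.5-fold lower in knockout members and 0 higher, beside 9.29% and 16% of all genes. The list's median was -1.32, or -1.23 relative to span. Gapdh was at 753 CPM (729 to 777) in knockout members and 2177 CPM (2133 to 2222) in control members, Pgk1 at 157 CPM (146 to 168) in knockout members and 564 CPM (542 to 587) in control members and Ldha, which turns pyruvate to lactate, at 279 CPM (265 to 294) in knockout members and 734 CPM (708 to 759.7) in control members. Tpi1 (139 against 502 CPM), Aldoa (330.1 against 1056 CPM), the glucose transporter gene Slc2a1 (29.7 against 83.3 CPM) and Bnip3, a mitochondrial protein gene induced by low oxygen (15.7 against 60.9 CPM), were lower too. Hif1a (202 against 249.6 CPM) and Hk1 (103 against 102 CPM) lay within 1.5-fold. The difference was not limited to members. The same genes had medians of -1.57 in Tcf7-positive cells, -1.02 in recently stimulated cells, -1.10 in dividing cells and -1.26 in B cells. Of the other metabolic lists, respiratory chain genes had 12 of 24 lower and 0 higher (median -0.58, or -0.38 relative to span), and mevalonate and sterol genes 5 of 18 lower and 0 higher (median -0.35 before and -0.35 after that subtraction), Hmgcs1 at 29.1 against 49.7 CPM and Idi1 at 13 against 24 CPM among them. Ribosomal protein genes had 47 of 92 lower and 1 higher.

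Type I interferon-stimulated genes were lower in part. Of 23 measured, 11 were at least 1.5-fold lower and 0 higher, beside 9.29% and 16% of all genes. The list's median was -0.49, or -0.45 relative to span. Isg15, a ubiquitin-like antiviral protein gene, was at 53.1 CPM (47 to 59.7) in knockout members and 212 CPM (199 to 227) in control members, and Rsad2 (viperin) at 20.5 CPM (16.8 to 24.8) in knockout members and 94 CPM (85.1 to 104) in control members. Isg20 (27.2 against 89.8 CPM), Bst2 (96.2 against 227 CPM) and Irf7 (24 against 59 CPM) were lower, while Ifi27l2a (1108 against 1175 CPM) and Ddx58 (88.6 against 78.1 CPM) lay within 1.5-fold. Isg15 was detected in 14% (10.8 to 17.8) of knockout members and 34.3% (28.7 to 40.2) of control members after thinning, and B cells had 5.95% and 22.2%. After subtraction of an estimate of free RNA, the log2 ratio of Isg15 was -1.79 and the list's median -0.39. With the highest doublet scores removed, the log2 ratio of Rsad2 was reduced to -1.06. In B cells the list had a median of -0.56, and in recently stimulated cells 0.09. Interferon-gamma-induced genes had 5 of 19 lower and 0 higher (median -0.23, or -0.28 relative to span), led by Psmb8, a subunit of the immunoproteasome (417 against 801 CPM).

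**Figure D3:**
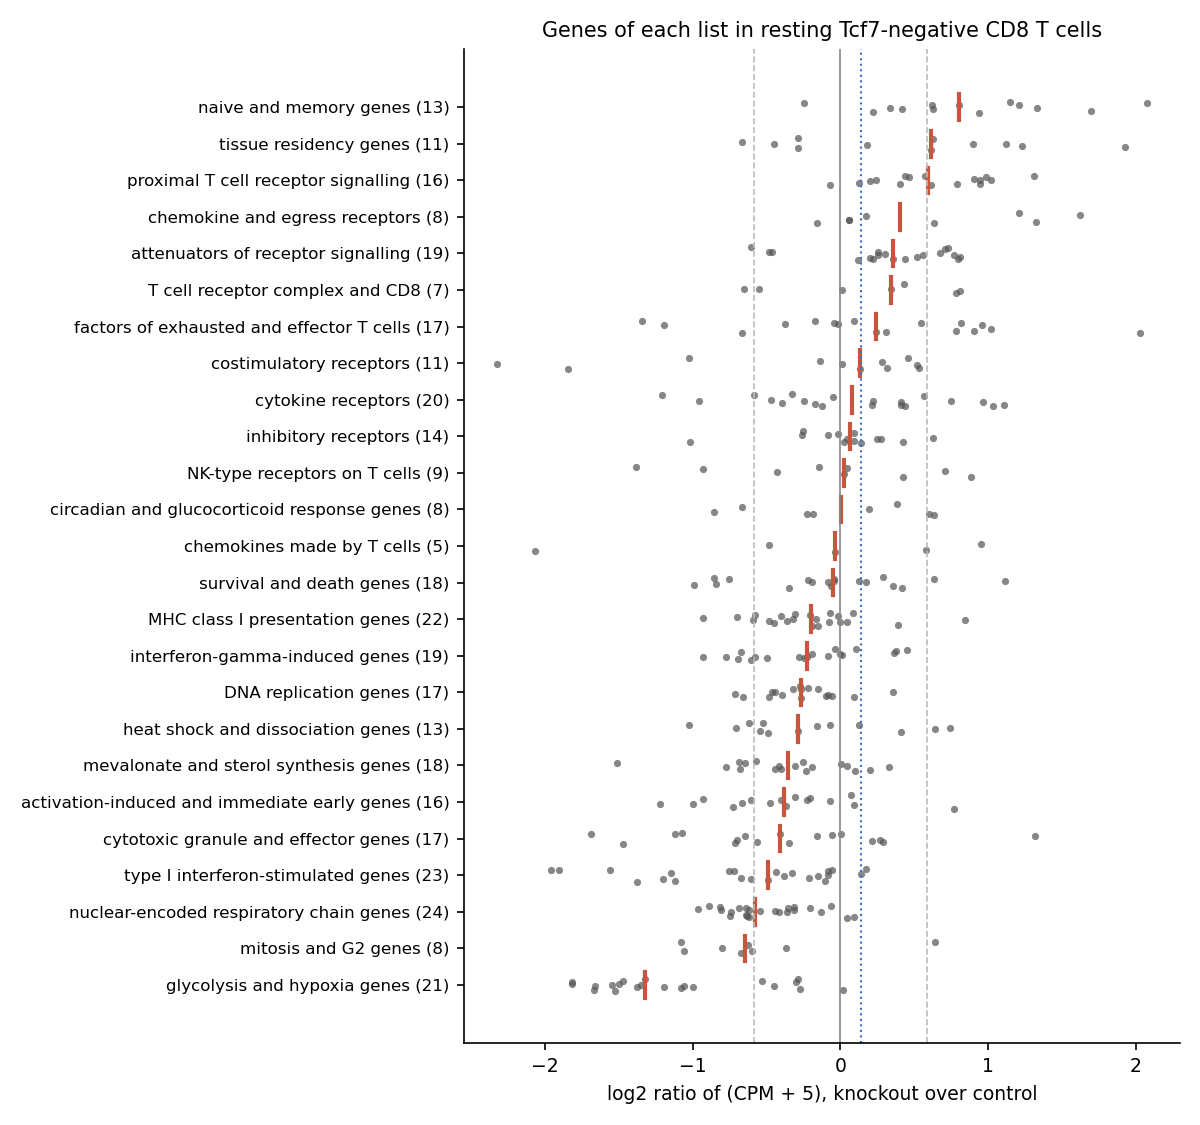
Log2 of the knockout over the control level, each with 5 CPM added (horizontal axis), for each gene with at least 10 CPM in the 25 lists, with the number of genes in brackets. Points are genes, red bars list medians, dashed lines 1.5-fold, and the dotted line the median of all genes at 0.14, with naive and memory genes at the top (0.80) and glycolysis genes at the bottom (-1.32).

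The promoters of the glycolysis and type I interferon lists were searched because many genes of each were lower in knockout members, 15 of 21 and 11 of 23. The windows are the 250 bases before the start of transcription from RefSeq (GRCm38.p6), and capitals mark the searched motif on either strand. The hypoxia response core, ACGTG or GCGTG, is the binding core of the hypoxia-inducible factors, and it is shown in Bnip3 (chr7:138909507-138909756, minus strand) and Ldha (chr7:46845554-46845803, plus strand). The interferon-stimulated response element, searched as 2 runs of GAAA with any 2 bases between them, is bound by interferon-activated factors, and it is shown in Isg15 (chr4:156200819-156201068, minus strand) and Rsad2 (chr12:26456453-26456702, minus strand).
Bnip3: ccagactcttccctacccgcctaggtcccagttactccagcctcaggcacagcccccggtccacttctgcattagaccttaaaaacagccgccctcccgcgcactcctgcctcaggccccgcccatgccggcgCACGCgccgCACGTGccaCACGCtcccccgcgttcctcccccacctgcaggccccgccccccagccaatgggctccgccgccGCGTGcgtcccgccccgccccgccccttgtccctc
Ldha: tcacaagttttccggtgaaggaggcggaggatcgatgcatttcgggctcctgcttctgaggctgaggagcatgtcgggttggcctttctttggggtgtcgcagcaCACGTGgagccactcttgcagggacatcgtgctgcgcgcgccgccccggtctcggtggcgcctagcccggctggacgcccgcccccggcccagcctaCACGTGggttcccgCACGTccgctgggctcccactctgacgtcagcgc
Isg15: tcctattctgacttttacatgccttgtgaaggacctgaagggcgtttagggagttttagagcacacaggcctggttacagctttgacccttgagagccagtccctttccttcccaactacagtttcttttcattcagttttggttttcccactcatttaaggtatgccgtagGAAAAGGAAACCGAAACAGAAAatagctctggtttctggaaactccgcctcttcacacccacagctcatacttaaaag
Rsad2: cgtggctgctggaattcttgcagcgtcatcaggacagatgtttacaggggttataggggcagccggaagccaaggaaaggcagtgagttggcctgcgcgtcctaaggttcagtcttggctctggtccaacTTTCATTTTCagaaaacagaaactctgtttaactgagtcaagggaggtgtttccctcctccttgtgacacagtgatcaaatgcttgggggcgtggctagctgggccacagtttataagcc
The hypoxia core was present in 15 of 20 glycolysis gene windows (75%), in 5 of 17 interferon-stimulated gene windows (29.4%) and in 38.6% of the first windows of all 27025 genes. The interferon motif was present in 9 of 17 interferon-stimulated gene windows (52.9%), in 0 of 20 glycolysis windows and in 3.04% of all. The core matches on both strands where it reads CACGTG, and such a stretch was counted once. A match is a run of letters and not a measured binding site.

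Of the 24 genes with the most extreme ratios, several rest on few barcodes or were at other levels across the whole libraries. Among the 12 highest, Hbb-bs, Hba-a1, Hba-a2 and Hbb-bt, the haemoglobin genes of red blood cells, came from 1 knockout barcode that held 4437 of 4450 haemoglobin UMIs (99.7%), 58.2% of its own 7624 UMIs. Without the barcode that held most of each gene, Hbb-bs was at 1.54 and 2.11 CPM. Retnla, a secreted protein gene of alternatively activated macrophages, had 1612 UMIs in knockout members and 0 in control members, at least 442-fold higher in the knockout library against a floor of 3 counts over all control members. One knockout barcode held 947 of these UMIs, and without it the level was 128 CPM. Retnla was detected in 33.2% of thinned knockout members and in 28.6% of knockout B cells, which should lack it, and stood at 2094 CPM over all kept knockout barcodes and 1.68 CPM over the control ones.

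The other 7 genes of the highest 12 were spread over many cells. Prr5l, which binds a growth-signalling complex, was at 113 CPM (104 to 122) in knockout members and 12.8 CPM (9.67 to 16.7) in control members, from 189 of 488 and 35 of 351 members. Taco1, which promotes translation of a mitochondrial enzyme subunit, was at 185 against 42.7 CPM, Zfp831 at 160.1 against 39.2 CPM and Vmn2r96, a vomeronasal receptor gene, at 84.9 against 13.8 CPM. Bach2, Tox2 and Itga1 are the other three, described above. Taco1 differed likewise in Tcf7-positive cells (189 against 23.5 CPM), dividing cells (216 against 37.8 CPM) and B cells (118 against 28 CPM). Over all kept barcodes, Taco1 was at 155 against 30.2 CPM, Zfp831 at 99.2 against 9 CPM and Vmn2r96 at 23.3 against 3.41 CPM. Tox2 was at 22.7 against 0.935 CPM there, Bach2 at 351 against 58.9 CPM, Itga1 at 53.9 against 12.5 CPM and Prr5l at 76 against 32.5 CPM.

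The 12 lowest genes were mostly those of melanoma or macrophages. Dct and Pmel, genes of melanin formation, were at 3.83 against 63.9 CPM and 2.3 against 33.4 CPM in members and at 137 against 1257 and 53.8 against 455 CPM over all kept barcodes. Ccl7 (0.383 against 33.1 CPM), Spp1 (5.56 against 61.6 CPM), Acod1 (1.53 against 35.5 CPM), Gpnmb (2.11 against 35.5 CPM), Cxcl2 (5.18 against 49.2 CPM) and Lrmda (9.01 against 72.8 CPM) are expressed by myeloid cells, though not only by them. Gpnmb was at 348 CPM in control Tcf7-positive cells, which also held Dct at 2184 CPM and Pmel at 556 CPM. Subtraction of free RNA, which assigns every Lyz2, Apoe, Csf1r, Ms4a7 and Mrc1 UMI of the members to it, moved Dct from -2.96 to 0 and Pmel from -2.39 to -0.59 on the log2 scale, and Ccl7 to -1.11. It left Acod1 at -2.70, Cxcl2 at -3.17, Lrmda at -2.81, Spp1 at -2.42, Gpnmb at -1.93, Capg at -2.66, Mt1 at -2.40, Hilpda at -2.54 and Myo10 at -2.67. The estimate was 5.83% of member UMIs for knockout and 6.82% for control members. Counts that fell under 0 were set to 0, as for Dct in both libraries, so its ratio of 0 is set by the method. Pmel, Ccl7, Acod1, Cxcl2 and Lrmda were set to 0 in knockout members only, so their ratios after subtraction rest on the control level and the added 5 CPM. Capg, an actin-capping protein gene, had 31.4 against 209 CPM and was present in 77 of 488 and 220 of 351 members, and Mt1, a metal-binding metallothionein gene, had 44.1 against 259.9 CPM. Hilpda, a lipid droplet gene induced by low oxygen, had 7.67 against 71.4 CPM, and Myo10, an unconventional myosin gene, 2.3 against 40.8 CPM. In control members, 1 barcode held 179 of 264 Spp1 UMIs (67.8%) and 126 of 211 Cxcl2 UMIs (59.7%), and without the leading barcode of each library the log2 ratios were -1.38 for Spp1 and -1.37 for Cxcl2.

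Set against the Tcf7-positive cells of the same library, members had the reverse of the progenitor programme. This did not hold against the other classes. Naive and memory genes had medians of 0.11 (knockout) and -0.05 (control) against recently stimulated cells, and of 0.44 and 0.55 against dividing cells. The gates chose these groups, so the values describe them. Against Tcf7-positive cells, 14 of 16 naive and memory genes were at least 1.5-fold lower in knockout members and 15 of 16 in control members, with medians of -2.12 and -2.80. Over all 7893 genes, 8.21% and 14.7% were lower in knockout and control members. Il7r was at 35.8 against 752 CPM for knockout cells and 43.4 against 444 CPM for control cells, and Aff3 at 48.1 against 732 CPM for knockout cells and 11.4 against 421 CPM for control cells. Inhibitory receptors were the other way round, with 11 of 14 higher and 1 lower in each library and medians of 1.59 and 1.44, beside 6.64% and 9.31% of all genes higher. Havcr2 was at 325 against 33.8 CPM for knockout cells and 296 against 26 CPM for control cells, and Gzmb at 428 against 85.7 CPM for knockout cells and 908 against 106 CPM for control cells. Also among the 8 highest were Tcrg-C2, a constant gene of the gamma receptor chain (67.7 against 8.25 CPM for knockout cells and 54.4 against 2.48 CPM for control cells), Adgrg1 (32.4 against 3.02 CPM for knockout cells and 33.1 against 2.48 CPM for control cells) and Rgs8. The 69 control Tcf7-positive cells held Dct at 2184 CPM, a melanoma RNA at 3.82 CPM in the knockout ones, which touches the control values of this comparison.

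Recently stimulated cells, with 3 or more UMIs of Xcl1, Crtam and Nr4a3, had more of several receptor-induced RNAs than members. Of 19 immediate early genes, 17 (knockout) and 13 (control) were lower in members, with medians of -1.19 and -0.77, beside 8.96% and 8.14% of all 7630 genes. Egr3, an early response factor, was at 1.73 against 102 CPM for knockout cells and 1.4 against 60 CPM for control cells, and Ccl4 at 1278 against 9419 CPM for knockout cells and 852 against 3904 CPM for control cells. Inhibitory receptors had medians near 0 (0.06 and 0.12), and Cd244a was higher in members (91.1 against 31.2 CPM for knockout cells and 88.2 against 16.9 CPM for control cells).

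Against dividing cells the gate removed cycle genes, with 19 and 20 of 20 replication genes and 17 of 17 mitosis genes lower in members, beside 14.3% and 12.5% of all 7886 genes. Interferon-stimulated genes were higher in members in both libraries, in 16 and 20 of 21 genes, with medians of 0.74 and 0.92, beside 7.95% and 9.83% of all genes. Rsad2 was at 20.5 against 4.89 CPM for knockout cells and 94 against 26.4 CPM for control cells, Ccl5 at 8732 against 3060.4 CPM for knockout cells and 4509.6 against 1275 CPM for control cells and Itga1 at 168 against 29 CPM for knockout cells and 40.4 against 9.01 CPM for control cells. Interferon-stimulated genes were not higher in members against every class. Their medians were -0.45 (knockout) and -0.16 (control) against Tcf7-positive cells, and 0.01 and 0.37 against recently stimulated cells. Cells with Gzmc to Gzmf, numbering 5 (knockout) and 125 (control), were too few in 1 library to be compared in both.

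**Figure D4:**
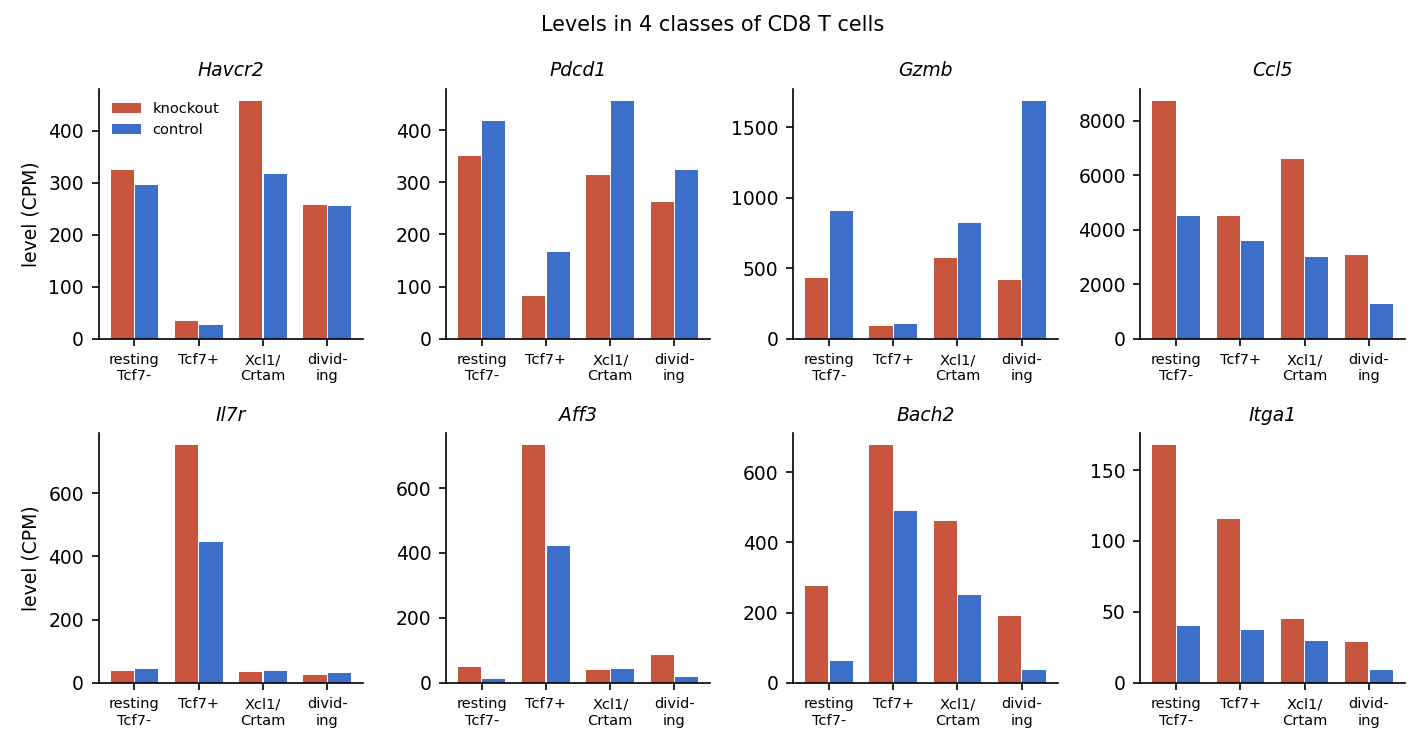
Summed level (vertical axes, CPM, each panel with its own scale) of 8 genes in 4 classes of CD8 T cells, with bars for the knockout and control library and 1 library per bar. Resting Tcf7-negative cells have high Havcr2 and low Il7r and Aff3 next to Tcf7-positive cells, and more Itga1 than dividing cells. Their Ccl5 is above that of Tcf7-positive cells in the knockout library (8732 against 4504 CPM) and within 1.5-fold of it in the control (4509.6 against 3599 CPM).

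The receptor genes of the members differed between libraries. Trbv2, 1 of the variable genes of the receptor beta chain, was chosen after its values were seen. It was found in 102 of 351 control members, 29.1% (24.4 to 34.1), and in 5 of 488 knockout members, 1.02% (0.333 to 2.37). A Trbv2 UMI was found in 35.2% of control dividing cells, 21.1% of control recently stimulated cells, 20% of control cells with Gzmc to Gzmf and 4 of 69 control Tcf7-positive cells. In the B cells it was found in 0 of 121 control cells, which allows a share of up to 2.48%, and in 0 of 98 knockout cells, which allows up to 3.06%. Of members with at least 2 UMIs of a single leading beta variable gene, 52 of 58 control cells (89.7%, 78.8 to 96.1) had Trbv2, and the 22 knockout cells used 8 genes, with 5 cells on Trbv13-1 and none on Trbv2. Such an assignment was possible for 4.51% of knockout and 16.5% of control members.

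Control members with Trbv2 carried several alpha chain genes. Trav10 was found in 12 of 102 cells with Trbv2 and in 1 of 48 cells with another beta gene, Traj9 in 15 and 1, and Trav6n-6 in 7 and 1. Trav13-1 was found in 0 of 102 and 5 of 48. In control dividing cells Trav10 was likewise found in 62 of 438 cells with Trbv2 and in 4 of 365 with another beta gene.

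Control members with a Trbv2 UMI differed from the other control members in naive and memory genes, of which 6 of 10 were lower and 0 higher (median -0.79). Over all genes in this comparison, 5.52% were lower. Il7r was at 16.4 CPM in them and 59.2 CPM in the rest, Lef1 at 28.4 and 61.1 CPM and Klf2 at 5.05 and 27.8 CPM. Cytotoxic genes had a median of 0.10 and inhibitory receptors of 0.05. The cells with a Trbv2 UMI were deeper (median 15205 against 9529 UMIs), which moves with the detection of the gene, and its part was not tested. Only 150 of 351 control members had a UMI of any beta variable gene, so cells without a Trbv2 UMI can include cells that use it. Leaving out the 102 cells therefore need not remove every cell that uses Trbv2. With the 102 cells left out of the control library, the knockout over control log2 ratio was -1.06 for Gzmb, -1.76 for Prf1, 0.92 for Tox, 1.75 for Bach2 and -1.42 for Gapdh. Counted the same way, 1052 genes were higher and 739 lower.

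**Figure D5:**
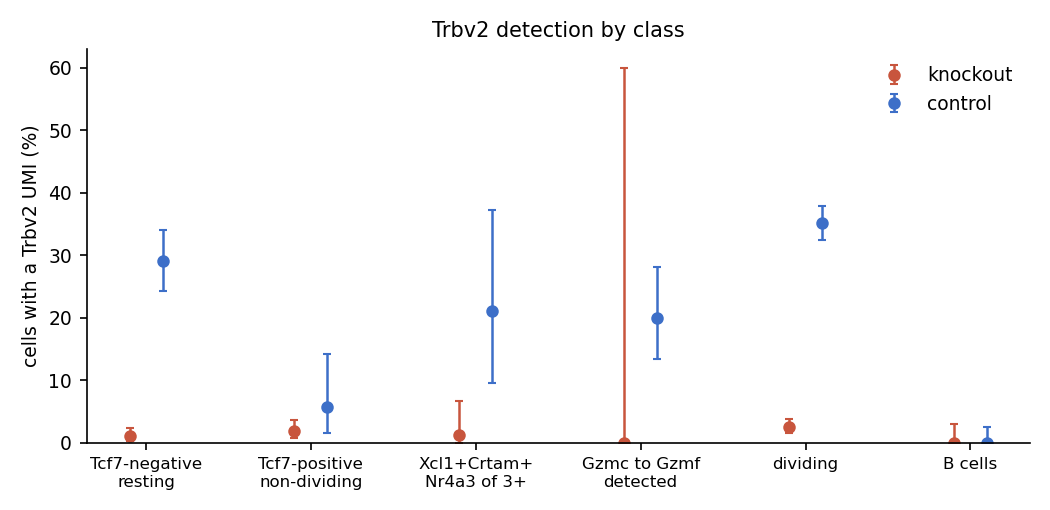
Share of cells with a Trbv2 UMI (vertical axis, percent) in each class of CD8 T cell and in B cells of the knockout and control library, with exact 95% intervals for counting error, or, for a share of 0, the limit that 3 counts allow. Control resting Tcf7-negative cells (29.1%) and control dividing cells (35.2%) lie far above those of the knockout library (1.02% and 2.54%), and the 5 knockout cells with Gzmc to Gzmf leave a wide interval.

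Variation among members was ranked over 7226 genes with a mean of at least 0.05 UMIs per thinned cell in each library, by the smaller value of the libraries. Genes at or near 0 in 1 library, such as Retnla and the haemoglobin genes, were therefore not ranked. Malat1, a nuclear non-coding RNA, and chemokines were among the first. Over thinned cells the variance divided by the mean was 33.6 and 32.8 for Malat1, 29.2 and 28.9 for Ccl5, 18.5 and 31.5 for Ccl4, and 17.0 and 18.6 for Ccl3, with a median over genes of 1.2 and 1.13. Ccl4 was detected in 73.6% (69.1 to 77.8) of knockout members and 65% (59.1 to 70.6) of control members, and up to 95 and 158 UMIs were counted in 1 cell. Ccl3 accompanied it unevenly, being present in 60.2% and 69.8% of cells with Ccl4 and in 24.8% and 34.7% of those without. Gzma was also among the 10 most variable genes (15.3 and 11.0). Cd74, Ebf1 and H2-Ab1, genes of antigen-presenting cells or B cells, were in the 10 too, with means of 1, 0.121 and 0.453 UMIs per knockout cell. At 3000 UMIs Ebf1 and H2-Ab1 gave way to Ifi27l2a and Alcam.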

How the data were processed

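The authors deposited whole-number UMI counts per gene and barcode for both libraries. The file headers name Cell Ranger 7.2.0, and the submitters' processing notes name mm10. The annotation used and whether intronic reads were counted are not given in the sources used here. Barcodes with at least 200 genes and under 10% mitochondrial UMIs were kept, 8697 of the knockout and 9415 of the control library. Members and gene lists were chosen with earlier results of these data known. UMIs were summed over members, scaled to CPM and compared as log2 ratios of CPM plus 5, with 1.5-fold as the limit and genes under 10 CPM left out. Of 38 symbols shared by several identifiers, the identifier with most UMIs was used. Gate genes were left out of the lists. With 1 library per group no p-value was computed, and exact Poisson and Clopper-Pearson intervals at 95% cover counting error only (counts of 0 allow 3). The 12 genes with the highest and the 12 with the lowest ratio were named, 8 each way against other classes, and 10 by variance. Genes named by ratio had intervals that did not overlap, and those against other classes had the same sign in both libraries. These choices left out gate, mitochondrial, ribosomal, receptor variable, Gm and Rik genes. B cells had at least 3 UMIs of Cd79a, Cd79b and Ms4a1, 0 of the T cell genes and under 20 of the C1q genes. Gene spans came from GENCODE M21. Doublets were scored with Scrublet (scanpy 1.11.5), whose own threshold marked 0 knockout and 144 control cells, so doublets were kept, and the 635 and 820 highest scores were removed in an alternative. Alternatives changed the gates, scaling, pseudocount, minimum, thinning and free RNA, and left out control members with a Trbv2 UMI. Summing and ratios were tested on simulated data. A few genes of the lists are not reported here by name.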

Additional observations from a re-analysis of the deposited data

Results flagged for a closer look

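Hba-a1, a haemoglobin gene, was higher in knockout members (log2 ratio 5.16) and lower in knockout Tcf7-positive cells (-0.74), at 216 against 1.17 CPM and 0.201 against 3.71 CPM. Both Tcf7-positive levels lie under the 10 CPM used as a minimum for members, so the ratio of -0.74 rests on very few UMIs. The difference between the classes was not tested. In members 1 knockout barcode held 99.8% of its UMIs, and without the leading barcode of each library the ratio was -0.083.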

How the results depend on the processing

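The ratio of member shares of the CD8 gate ran from 1.21 to 1.41 over 6 alternatives. It was 1.08 with C1q genes under 3 UMIs and 0.803 when counted against non-dividing cells, an alternative chosen after seeing the data. Against 1299 genes higher and 755 lower, a pseudocount of 20 CPM gave 719 and 426, a minimum of 50 CPM 825 and 360, median ratio scaling 639 and 1217, and trimmed mean scaling 677 and 1174. The other 11 settings gave 1052 to 1586 higher and 688 to 1089 lower. Higher genes were 63.2% of all called genes, and 34.4% and 36.6% under the 2 other scalings. Fewer genes pass a higher pseudocount or minimum by construction, and the scalings move every ratio alike. With the highest doublet scores removed, Hbb-bs was at -0.22, Hba-a1 at -0.21 and Hba-a2 at -0.26, and without the leading barcode Hbb-bs was at -0.12, Hba-a1 at -0.083 and Hba-a2 at -0.19. The medians of glycolysis genes (-1.46 to -1.05), naive and memory genes (0.52 to 0.93) and cytotoxic genes (-0.60 to -0.25) kept their sign in all settings, while 8 others did not (inhibitory, costimulatory, cytokine and NK-type receptors, exhaustion factors, T cell chemokines, survival and circadian genes). The median of mevalonate and sterol genes ran from -0.52 to -0.07 over the settings. No paired analysis was possible because each group has 1 library.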

Other observations

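Death-related genes, not described above, differed by gene. Bcl2l11, the pro-apoptotic BIM gene, was at 246 CPM (232 to 259.6) in knockout members and 111 CPM (101 to 121) in control members. Bcl2, which opposes it, lay within 1.5-fold (331 against 247 CPM). Bax (73.2 against 137 CPM), Pmaip1 (22.8 against 50.4 CPM), Bcl2a1b (134 against 245 CPM) and Bcl2a1d (62.1 against 108 CPM) were lower. Bcl2a1b and Bcl2a1d are near-identical copies and their values are uncertain, since reads cannot be assigned between them with certainty. In all 2 of 18 survival and death genes were higher and 4 lower, with a median of -0.05, or -0.07 relative to span, beside the 16% and 9.29% of all genes.

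Among cytokine receptors, Il12rb2, which conveys IL-12, was at 32 against 80.5 CPM and Il2ra, the high-affinity IL-2 receptor chain, at 16.3 against 36.4 CPM, both lower in knockout members. Ifnar2 (105 against 51.6 CPM), a chain of the type I interferon receptor, Tgfbr1 (41.4 against 16.6 CPM) and Il6st (54.4 against 24 CPM) were higher. Of 20 measured, 4 were higher and 2 lower, near the 16% and 9.29% of all genes. Among NK-type receptors, Fcer1g (32.4 against 92.4 CPM) and Tyrobp (32.2 against 65.8 CPM), adaptors that myeloid cells also express, were lower, and Klrc2 (111 against 57.9 CPM) and Cd7 (63.1 against 36.6 CPM) higher.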
